A study of Mus musculus with 8 samples.

Results

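The solute carrier families Slc3, Slc6, Slc7, Slc36, Slc38 and Slc43 hold most of the plasma membrane and lysosomal carriers for amino acids, and the carriers that clear GABA, glycine and the monoamines from the extracellular space. Members were all gene probes whose RefSeq accession maps to a symbol that begins with one of these family names and the letter a. That gave 69 probes for 55 genes, of 39429 gene probes on the array. By family they were 2 Slc3, 19 Slc6, 16 Slc7, 4 Slc36, 11 Slc38 and 3 Slc43 genes. One of the 55, Slc7a6os, is the gene on the strand opposite Slc7a6 and is no transporter, but its symbol meets the rule.

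RNA came from the neocortex of ICR mouse embryos at embryonic day 16, with no treatment or altered allele named in the labels. The wall had been cut by hand into V/SVZ, the ventricular and subventricular zones, where progenitors divide, and CP, the cortical plate, where young neurons settle. Each tissue had 4 samples, each on its own 1-colour Agilent array, and the comparison asks which transcripts distinguish the zones. The labels do not say whether samples came from separate embryos or pools, so p-values measure only how far these samples spread, and that spread may be technical. Slide 1 carried every V/SVZ array and slide 2 every CP array, so slide and tissue cannot be told apart. Because whole tissue was measured, fewer cells of a type and less RNA per cell cannot be told apart either.

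The families work by different means. Slc6 carriers couple uptake to sodium and chloride and end transmission by GABA, glycine, serotonin and the catecholamines, while other members carry taurine, creatine, proline or neutral amino acids. Slc7 holds cationic amino acid carriers that act alone and light chains that must pair with an Slc3 heavy chain to reach the membrane. Slc38 carriers move glutamine and other small neutral amino acids with sodium, Slc36 carriers move amino acids with protons, and Slc43a1 and Slc43a2 move large neutral amino acids without an ion gradient. In brain these carriers feed protein synthesis, supply glutamine for the glutamate and GABA cycle, and report amino acid supply to the growth kinase mTORC1 at the lysosome.

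The share of gene probes well above background differed little, from 58.4% to 62.9% per array. The signal's 75th percentile did differ by tissue, at 2416 to 2566 intensity units in V/SVZ and 2113 to 2264 in CP. The scaling between arrays removes this offset, which cannot be told apart from slide. Values below are scaled intensities: the scanner's processed signal, scaled so that the 75th percentile of every array is 2335. They compare 1 probe across arrays and do not rank genes against each other. Differences are V/SVZ minus CP on the log2 scale with their SE from limma, and adjusted p is by Benjamini-Hochberg over all 19232 genes tested, with a gene called under 0.05. Of these, 13831 had a symbol, and the others are transcripts known only by their name on the array, each counted as a gene. Shares of all genes include them. Zone markers were as labelled, with all 8 radial glia and all 5 intermediate progenitor markers higher in V/SVZ and all 8 plate neuron markers higher in CP (largest: Aldoc 7.32, Eomes 8.39 and Camk2b -7.35).

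The probe sequences were not used here. The 5 stretches printed next are the 250 bases before the annotated start of transporter genes that stood on either side of the comparison, so that the letters can be set beside the values. They come from the RefSeq promoter table of build GRCm38.p6, which held 58 start sites for 38 of the 55 genes, and they were taken from the 8 tested members with 1 start site whose window lay outside every annotated gene. Slc6a4 and Slc7a8 had the largest differences towards CP among these, Slc6a11 and Slc38a5 the largest towards V/SVZ, and Slc36a4 was not called. Capitals mark GC boxes (GGGCGG or its reverse CCGCCC) and E-boxes (CACGTG), and no match of either overlaps the other.
Slc6a4, chr11:76998347-76998596, + strand: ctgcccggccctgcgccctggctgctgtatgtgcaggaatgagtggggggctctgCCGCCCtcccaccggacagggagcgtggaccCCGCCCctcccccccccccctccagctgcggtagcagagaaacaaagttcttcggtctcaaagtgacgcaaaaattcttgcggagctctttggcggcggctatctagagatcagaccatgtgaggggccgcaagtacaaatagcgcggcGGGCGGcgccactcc
Slc7a8, chr14:54781887-54782136, - strand: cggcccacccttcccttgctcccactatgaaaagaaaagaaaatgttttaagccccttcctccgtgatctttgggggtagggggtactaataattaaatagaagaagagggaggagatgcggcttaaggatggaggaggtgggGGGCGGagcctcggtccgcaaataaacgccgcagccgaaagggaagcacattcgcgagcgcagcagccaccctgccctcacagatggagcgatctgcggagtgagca
Slc6a11, chr6:114130991-114131240, + strand: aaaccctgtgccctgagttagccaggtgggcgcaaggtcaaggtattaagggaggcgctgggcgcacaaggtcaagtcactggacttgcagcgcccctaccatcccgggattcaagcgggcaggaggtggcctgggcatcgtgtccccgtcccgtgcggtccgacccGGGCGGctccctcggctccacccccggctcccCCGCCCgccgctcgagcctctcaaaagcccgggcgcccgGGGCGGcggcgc
Slc38a5, chrX:8271131-8271380, + strand: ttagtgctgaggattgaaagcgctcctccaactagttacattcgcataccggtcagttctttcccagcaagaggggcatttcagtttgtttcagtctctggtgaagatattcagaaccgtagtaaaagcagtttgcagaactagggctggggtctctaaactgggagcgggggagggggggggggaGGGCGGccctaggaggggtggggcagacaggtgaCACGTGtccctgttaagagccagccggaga
Slc36a4, chr9:15709488-15709737, + strand: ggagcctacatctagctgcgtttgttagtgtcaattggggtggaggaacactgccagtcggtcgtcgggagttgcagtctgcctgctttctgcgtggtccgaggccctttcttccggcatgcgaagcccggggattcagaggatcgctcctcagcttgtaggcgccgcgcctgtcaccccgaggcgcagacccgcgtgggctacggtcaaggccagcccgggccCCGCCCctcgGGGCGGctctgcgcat
Slc6a4 and Slc6a11, which differed in opposite directions, each held 3 GC boxes, and only the Slc38a5 window held an E-box among these 5. A GC box occurred in 46.6% of the 58 member windows and in 32.7% of all 32851 windows of the table, and an E-box in 10.3% and 6.02%. The core letters of the amino acid response element, TGATGNAA on either strand, occurred in 4 member windows (6.9%), those of Slc6a21, Slc7a11 and Slc7a7, and in 3.45% of all. The RE1 site piece TTCAGCACC, searched on both strands, was in 0 of the 58 and in 0.301% of all. These are letter matches only.

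Of the 55 genes, 34 had a probe that could be tested, which means a signal well above background throughout at least 1 tissue (all 4 arrays), and 31 of them were so on all 8 arrays. A gene could pass through 1 tissue alone, which favours genes that differ, although Slc3a1 passed through V/SVZ alone and was not called. These counts thus describe the tested genes and not all members. The tested members were 26 called genes and 8 uncalled ones, 76.5% called, against 79.5% of all genes tested. CP was the higher tissue for 19 of them and V/SVZ for 7, where 44.6% of all genes were called higher in CP and 35.0% higher in V/SVZ. At 2-fold or more the counts were 7 for CP and 3 for V/SVZ, together 10 of 34, with 30.2% of all genes called at that size. The median difference of the tested members was -0.17 and that of all genes -0.09, and the median absolute difference was 0.49 against 0.56. Differences smaller than 0.25 in either direction were found for 14 members, 41.2%, and for 27.2% of all genes. In 26 members the 4 arrays of one tissue all lay beyond the 4 of the other, as they did in 75.2% of all genes. With median scaling the counts were 13 members for CP and 7 for V/SVZ. Without scaling between the arrays the counts were 12 members for CP and 13 for V/SVZ, since that setting moves the median of all genes from -0.09 to 0.11. The directions of small differences thus depend on the scaling, whereas those of every member at 2-fold or more kept their call in all settings in which the gene was tested. After scaling, the spike-in controls themselves differed between the tissues by up to 0.16, and 4 called members differed by no more than that. Of the 26 called members 8 lost their call or turned their sign in at least 1 setting, and of the 8 uncalled ones 7 were called in at least 1.

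**Figure D1:**
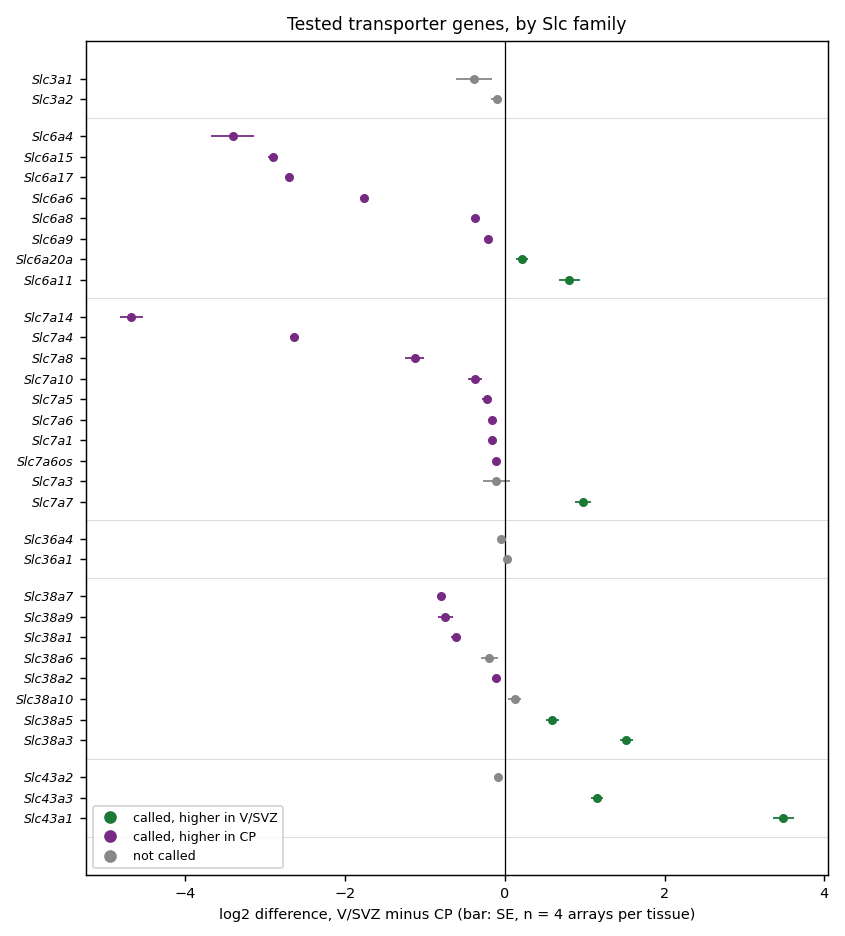
Log2 difference between V/SVZ and CP (horizontal axis, SE as bars, 4 arrays per tissue) for 33 tested members, grouped by family from Slc3 at the top to Slc43 at the bottom and coloured by call. Slc7a14 lies farthest towards CP at -4.67 and Slc43a1 farthest towards V/SVZ at 3.49, and both tested Slc36 genes lie near 0.

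The largest difference of all members was that of Slc7a14, a lysosomal relative of the cationic amino acid carriers that is expressed in neurons. Its scaled intensities were 83.4, 124, 131 and 121 on V/SVZ arrays 1 to 4 and 3047, 3014, 2666 and 2845 on the CP arrays. The tissues were far apart on every array, and V/SVZ 1 was the lowest of its group. Slc7a14 was 25.5-fold higher in CP (difference -4.67 ± 0.14, n = 4 per tissue, limma adjusted p = 2.05e-08). After normexp background correction it was 15.9-fold higher in CP.

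Slc7a4, a relative of the same group whose substrate is not settled, was 6.23-fold higher in CP. Its values were 829.98, 807, 890.4 and 788 in V/SVZ and 5119.9, 5051, 5502 and 4963 in CP. The 2 groups did not overlap (-2.64 ± 0.05, adjusted p = 2.25e-09). A second Slc7a4 probe was on no array well above background. The classical carriers of arginine and lysine differed much less. Slc7a1, the widely expressed arginine carrier, read 15681, 15502, 15416 and 15238 in V/SVZ and 17218, 17477, 16509.8 and 17707 in CP. That is 1.11-fold higher in CP (-0.16 ± 0.03, adjusted p = 0.00303). The Slc7a1 call was lost with median scaling (-0.07, adjusted p = 0.406), and without scaling its difference was 0.052. Slc7a3, the neuronal arginine carrier, was not called (-0.10 ± 0.17, adjusted p = 0.593). It ranged from 96.3 to 123 in V/SVZ and from 83.1 to 145 in CP. Slc7a2, a carrier known from macrophages and liver, was not tested: it was well above background on 2 V/SVZ arrays and on 0 CP arrays, with 29.7, 36.8, 41.6 and 42.6 against 18.8, 10.9, 8.95 and 11.6.

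Among the neutral amino acid carriers of Slc6, Slc6a15 and Slc6a17 stood together on the CP side. Slc6a15 (B0AT2) takes up branched-chain amino acids and proline into neurons. It read 600.2, 646, 709.9 and 715 in V/SVZ and 4867, 4755, 5297 and 4979 in CP, 7.46-fold higher in CP (-2.90 ± 0.07, adjusted p = 4.73e-09). Slc6a17 (NTT4), which carries neutral amino acids into synaptic vesicles, read 629, 600.4, 646 and 679 in V/SVZ and 4154, 4234, 4028 and 4148 in CP. It was 6.49-fold higher in CP (-2.70 ± 0.04, adjusted p = 1.03e-09), the smallest adjusted p of any member. In both genes the CP arrays were all several-fold above the V/SVZ arrays. Slc6a20a, a proline carrier, went the other way by a small amount, with 399, 345, 319 and 373 in V/SVZ and 312, 282, 327 and 314 in CP. The groups overlapped, and its call towards V/SVZ (0.21 ± 0.08, adjusted p = 0.0342) was lost without V/SVZ replicate 1 (adjusted p = 0.0791), V/SVZ replicate 4 (0.0799), CP replicate 1 (0.0613), CP replicate 2 (0.0869) or CP replicate 4 (0.0578). Slc6a20a and Slc6a20b are related neighbouring genes, and whether the probe also binds Slc6a20b was not tested. The Slc6a20b probe was on no array well above background.

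The transmitter carriers of Slc6 are described by substrate. Slc6a11 (GAT3), the GABA carrier of astroglia, was 1.75-fold higher in V/SVZ (0.81 ± 0.13, adjusted p = 0.000594). Its 4 V/SVZ values were 298, 419, 446 and 453 and its CP values 217, 235, 236 and 221, and the groups did not overlap, with V/SVZ 1 nearest to CP. Slc6a12, which carries betaine and GABA, was on no array well above background, and Slc6a13 (GAT2) was so on 1 V/SVZ array.

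Slc6a6, the taurine carrier, read 3170.2, 3409, 3674 and 3328 in V/SVZ and 11149, 11358, 11839 and 11524 in CP. The groups were far apart, and Slc6a6 was 3.38-fold higher in CP (-1.76 ± 0.05, adjusted p = 1.51e-08). Slc6a8, the creatine carrier, read 9196, 10281, 10084 and 9723 in V/SVZ and 12523, 13463, 12291 and 12582 in CP, 1.30-fold higher in CP (-0.37 ± 0.05, adjusted p = 0.000156). Slc6a9 (GlyT1), the glycine carrier, read 1721, 1679, 1810.4 and 1839 in V/SVZ and 2021, 1925, 2173 and 2011 in CP (-0.21 ± 0.05, adjusted p = 0.0055). Its second probe gave -0.16 ± 0.05. The groups did not touch, but the call for Slc6a9 was lost with median scaling, at -0.12 (adjusted p = 0.215), and without scaling its value was 0.0026. Slc6a7, the proline carrier of glutamatergic terminals, was on no array well above background, although its 4 CP values (15.4 to 26.6) lay above its 4 V/SVZ values (7.98 to 11.4).

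Of the monoamine carriers, only the serotonin carrier Slc6a4 was tested. It read 9.91, 7.63, 6.93 and 12.3 in V/SVZ, where no array was well above background, and 94.2, 65.1, 144 and 91.5 in CP, where all 4 were. Against the lowest signals well above background it was at least 2.86-fold higher in CP (fitted difference -3.40 ± 0.27, adjusted p = 6.92e-06). After normexp it was 2.38-fold higher in CP, below that bound. The CP arrays spread more than for brighter members, with an SD of 0.47 on the log2 scale. The noradrenaline carrier Slc6a2 and the dopamine carrier Slc6a3 were not well above background on any of the 8 arrays.

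**Figure D2:**
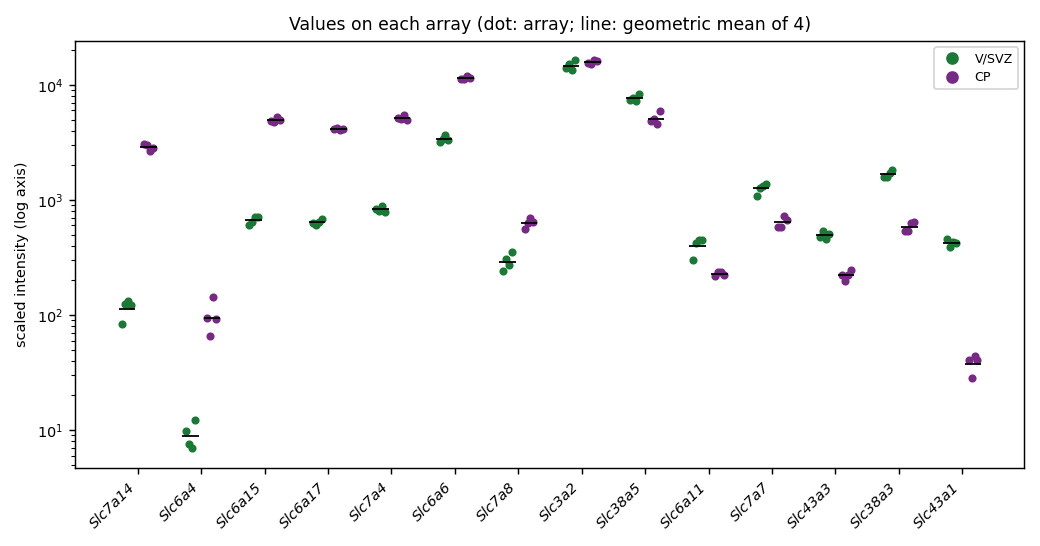
Scaled intensity on each array (log axis) for 14 members, with green dots for V/SVZ, purple dots for CP and lines for the geometric mean of 4 arrays. From Slc7a14 to Slc7a8 all CP arrays lie above all V/SVZ arrays, for Slc3a2 they overlap, and from Slc38a5 to Slc43a1 all V/SVZ arrays lie above. Compare only within a gene.

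Neither heavy chain was called, and the light chains had small to moderate differences. Slc3a2, the CD98 heavy chain that brings the large neutral and y+L carriers to the membrane, was not called (-0.10 ± 0.07, adjusted p = 0.19). It read 13991, 15065, 13363 and 16409 in V/SVZ and 15400.5, 15247, 16349 and 15976 in CP, with overlapping groups. It was called towards CP without V/SVZ replicate 4 (-0.16, adjusted p = 0.0296), with spike-in scaling (-0.17) and after normexp (-0.24). Slc3a1, the partner of Slc7a9, was dim and not called (-0.38 ± 0.22, adjusted p = 0.148), but was called towards CP after normexp (-0.34, adjusted p = 0.0162). The light chain Slc7a6 (y+LAT2) was 1.11-fold higher in CP (adjusted p = 0.0233), a call lost when V/SVZ replicate 1, 2 or 3 or CP replicate 2 or 4 was left out (adjusted p from 0.0503 to 0.0625), and with median scaling (-0.068, adjusted p = 0.464). Its antisense neighbour Slc7a6os was 1.07-fold higher in CP (-0.10 ± 0.03, adjusted p = 0.0165), a call lost with median scaling (-0.016, adjusted p = 0.842). Slc7a10 (Asc-1), which exchanges glycine and serine, read 349, 352, 347 and 303 in V/SVZ and 430.5, 477, 473 and 372 in CP (-0.37 ± 0.09, adjusted p = 0.00584), a call lost without scaling (-0.16, adjusted p = 0.165).

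The light chains of system L and y+L with larger differences went opposite ways. Slc7a8 (LAT2) read 244, 305, 271 and 351 in V/SVZ and 558, 631, 702 and 649 in CP, and was 2.18-fold higher in CP (-1.13 ± 0.12, adjusted p = 4.78e-05). Slc7a7 (y+LAT1), which exports cationic amino acids and is known from macrophages and epithelia, read 1084, 1277, 1330.1 and 1379 in V/SVZ and 584, 584, 723 and 671 in CP. It was 1.98-fold higher in V/SVZ (0.98 ± 0.10, adjusted p = 3.4e-05), and the groups did not overlap. Microglia markers moved the same way: 9 of 10 were higher in V/SVZ (largest P2ry12, 2.39), where 35.0% of all genes were called that way. Their summed scaled intensity was 30223 to 43721 in V/SVZ and 10311 to 13100 in CP. None of the 10 was below background on all arrays. Their part in the Slc7a7 result was not tested.

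Slc7a5 (LAT1), the main carrier of leucine and other large neutral amino acids, gave different answers by probe, and was singled out after its values were seen. The probe that represents the gene read 1957, 2096, 1949.7 and 2033 in V/SVZ and 2241, 2201, 2471 and 2485 in CP, 1.17-fold higher in CP (-0.22 ± 0.05, adjusted p = 0.00501). That call was lost with median scaling (-0.14, adjusted p = 0.163) and without scaling (-0.016, adjusted p = 0.809). The second probe, of the same accession, read 144, 145, 143 and 134 in V/SVZ and 1083, 976.6, 967 and 976.1 in CP. In the separate fit of all 23860 tested probes, it was 7.08-fold higher in CP (-2.82 ± 0.05, limma p adjusted over those probes 1.3e-09). The gap between the probes was 3.83 ± 0.08 (SD, n = 4) in V/SVZ and 1.23 ± 0.15 in CP on the log2 scale. Where each probe lies in the transcript is not used here.

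**Figure D3:**
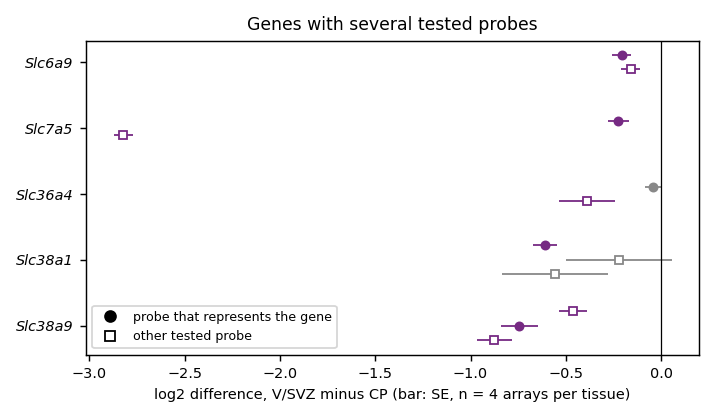
Log2 difference (horizontal axis, SE as bars, 4 arrays per tissue) for each tested probe of 5 members with several, filled circles for the probe that represents the gene and open squares for the others, coloured purple where called higher in CP and grey where not called. The probes of Slc7a5 lie at -0.22 and -2.82, and those of Slc6a9 lie close together at -0.21 and -0.16.

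In the other members with several tested probes, none was called in opposite directions. Slc38a9 gave -0.74 ± 0.10, -0.46 ± 0.07 and -0.88 ± 0.09, all called. Slc38a1 gave -0.61 ± 0.06 (called), -0.56 ± 0.28 and -0.22 ± 0.28 (not called), the last with V/SVZ values from 288 to 749. Slc36a4 gave -0.04 ± 0.04, not called, and -0.39 ± 0.15, called. Of all tested probes 79.7% were called.

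The glutamine and neutral amino acid carriers of Slc38 were split between the tissues. Slc38a3 (SNAT3), the glutamine carrier known from astroglia, read 1598, 1582, 1726 and 1818 in V/SVZ and 532, 539.9, 632 and 639.99 in CP. It was 2.87-fold higher in V/SVZ (1.52 ± 0.08, adjusted p = 5.75e-07). Slc38a5 (SNAT5), a related carrier, read 7417, 7764, 7246 and 8339 in V/SVZ and 4858, 5075, 4605 and 5902 in CP, 1.51-fold higher in V/SVZ (0.59 ± 0.08, adjusted p = 0.000252). The groups did not overlap in either gene.

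Slc38a1 (SNAT1), the glutamine carrier known from neurons, read 33436, 28425, 28718 and 27515 in V/SVZ and 46206, 44194, 44047 and 45360.1 in CP. It was 1.53-fold higher in CP (-0.61 ± 0.06, adjusted p = 3.89e-05). Slc38a7, which carries glutamine and is found in lysosomes, read 704, 759.7, 668 and 720.00 in V/SVZ and 1221, 1287, 1280.2 and 1163 in CP, 1.74-fold higher in CP (-0.80 ± 0.05, adjusted p = 2.3e-06). Slc38a9, the lysosomal arginine sensor of mTORC1, read 1597, 1701, 1991 and 1486 in V/SVZ and 2657, 3124, 2662 and 2856 in CP, 1.67-fold higher in CP (-0.74 ± 0.10, adjusted p = 0.000166). On the probe that represents each gene, every CP array lay above every V/SVZ array for these 3 carriers. The other tested Slc38a1 probes had overlapping groups and were not called (-0.56 ± 0.28 and -0.22 ± 0.28). The first of these read 6491, 6969, 4302 and 9171 in V/SVZ and 9418, 10017, 6541 and 13532 in CP. On it each CP array lay above the V/SVZ array of the same number. The last probe did not keep this order, with 749 on V/SVZ 2 and 487 on CP 2. The probe fit took no account of replicate numbers.

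Slc38a2 (SNAT2), which cells raise when amino acids are scarce, read 28680.3, 28835, 28406 and 27728 in V/SVZ and 29902, 30694, 30622 and 31046 in CP. Its difference of -0.11 ± 0.03 was called (adjusted p = 0.0126), a call lost with median scaling (-0.017), quantile scaling (-0.07), normexp (-0.045) or no filter (adjusted p = 0.0506), and without scaling the difference was 0.10. Slc38a2 is a direct neighbour of Slc38a1 and Slc38a4 on chromosome 15. Slc38a4 was not tested. It read 10.6, 8.29, 9.44 and 15.9 in V/SVZ, with 0 arrays well above background, and 48.7, 51.9, 63.3 and 59.2 in CP, with 2. Slc38a6 (-0.19 ± 0.11, adjusted p = 0.142) and Slc38a10 (0.13 ± 0.08, adjusted p = 0.187) were not called, and Slc38a8 and Slc38a11 were not well above background on any array.

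All 3 Slc43 genes were tested, and none was called towards CP. Slc43a1 (LAT3), a carrier of leucine and phenylalanine, read 458, 393, 433 and 419.8 in V/SVZ and 40.8, 28.3, 43.7 and 40.7 in CP. Only 1 of the CP arrays was well above background. The fitted fold, which rests on a CP level near the background limit, was 11.2 towards V/SVZ (3.49 ± 0.14, adjusted p = 8.82e-08), and 3.89 after normexp. Slc43a3, a nucleobase carrier, read 478, 534, 456 and 504 in V/SVZ and 222, 199, 222 and 244 in CP, 2.22-fold higher in V/SVZ (1.15 ± 0.07, adjusted p = 1.81e-06). Slc43a1 and Slc43a3 are separated by 1 coding gene on chromosome 2. Slc43a2 (LAT4), the close relative of Slc43a1, was not called (-0.09 ± 0.04, adjusted p = 0.0695), with 1241, 1244, 1153 and 1161 in V/SVZ and 1249.6, 1258, 1296 and 1297 in CP. The fitted values of Slc43a1 and Slc43a2 thus lie 1 on either side of 0, with the sign of Slc43a2 turned to 0.12 without scaling.

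Neither tested proton-coupled carrier was called, and both fitted differences were smaller than their SE or near it. Slc36a1 (PAT1), which exports small amino acids from lysosomes, ranged from 255 to 269.6 in V/SVZ and from 249 to 282 in CP (0.03 ± 0.05, adjusted p = 0.61). Slc36a4 read 854, 903, 855 and 812 in V/SVZ and 885, 907, 879 and 852 in CP (-0.04 ± 0.04, adjusted p = 0.379). Its dimmer tested probe was called towards CP in the fit of all tested probes (-0.39 ± 0.15, limma adjusted p = 0.0398). The signs of the Slc36a1 and Slc36a4 differences turned in other settings. Slc36a2 and Slc36a3 were not well above background on any array.

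The remaining untested members were mostly dim on every array. Slc6a18, Slc6a19, Slc7a13 and Slc7a15 were not well above background on any array, which makes 13 members in all with Slc6a2, Slc6a3, Slc6a7, Slc6a12, Slc6a20b, Slc36a2, Slc36a3, Slc38a8 and Slc38a11. A further 8 were so on 1 or 2 arrays. Besides Slc6a13, Slc7a2 and Slc38a4 these were Slc6a14, Slc6a21, Slc7a9, Slc7a11 and Slc7a12, each on 1 V/SVZ array. Slc7a11 (xCT), the cystine carrier, read 78.2 on V/SVZ 1 and at most 10.1 on the other 7 arrays, so no level is given for the tissue.

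Other cells in the tissue could carry these transcripts, and their markers were measured beside them. The counts below stand against 35.0% of all genes tested called higher in V/SVZ and 44.6% called higher in CP. Endothelial markers, of interest for carriers of the blood-brain barrier such as Slc7a1, Slc7a5 and Slc38a5, were higher in V/SVZ in 3 of 10 (largest Slc2a1, 0.98) and higher in CP in 1. The other 6 were not called, and the median difference of the 10 was 0.03. Their summed intensity was 36406 to 39258 in V/SVZ and 28989 to 31445 in CP. Slc2a1 alone had geometric means of 11138 in V/SVZ and 5641 in CP. Pericyte markers were higher in V/SVZ in 3 of 7 (largest Pdgfrb, 0.93), with sums of 6456 to 7822 and 4982 to 6159. Erythroid genes were higher in V/SVZ in 6 of 6 tested (largest Slc4a1, 0.68), with sums of 747963 to 880294 and 613545 to 655762. Astrocyte markers, of interest for Slc6a11 and Slc38a3, were higher in V/SVZ in 2 of 3 tested (largest Aldh1l1, 7.02). Gfap was tested and not called, and 2 of the 5 listed were not tested, of which Gjb6 was not above background. The sums over the list were 21550 to 29798 in V/SVZ and 288 to 509 in CP. With a median difference of 1.53 among the 3 tested, the V/SVZ sums rest mostly on Aldh1l1 and do not describe the list as a whole. Interneuron markers were higher in CP in 5 of 8 and in V/SVZ in 3 (largest Sst, -1.93), with sums of 23634 to 27120.1 and 32650 to 36431. Slc6a20a is itself on the list of meningeal markers. Of the other 6 tested, 2 were higher in CP and 1 in V/SVZ, with sums of 1612 to 2544 in V/SVZ and 1816 to 2181 in CP. Lum, the farthest apart, was at least 4.24-fold higher in CP, and Foxd1 and Aldh1a2 were not above background. Choroid plexus markers were higher in V/SVZ in 1 of 3 tested (largest Aqp1, 1.12) and in CP in 1, with a median difference of -0.56. Their sums were 352 to 521 in V/SVZ and 381 to 494 in CP, with Ttr, Kl and Clic6 not above background. Oligodendrocyte lineage markers were higher in V/SVZ in 2 of 6 (largest Olig2, 1.22) and in CP in 1, with a median difference of 0.06. Their sums were 3178 to 4057 in V/SVZ and 2807 to 3597 in CP. What part any of these cells have in the transporter values was not tested.

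Genes that act beside these carriers were read from 5 further lists. Of 14 tested amino acid and transmitter carriers of other families, 6 were called towards V/SVZ and 7 towards CP, where calls over all genes tested were 35.0% and 44.6%. The largest towards V/SVZ were Slc1a3, the glutamate carrier of radial glia and astrocytes (4.12 ± 0.13, 17.3-fold), and Slc1a5, a glutamine exchanger (2.21 ± 0.06, 4.61-fold). Towards CP they were the vesicular glutamate carrier Slc17a7 (-3.13 ± 0.08, 8.76-fold) and Slc1a1, the glutamate carrier of neurons (-3.09 ± 0.06, 8.51-fold). Some glutamine carriers of both lists can be set side by side, an incomplete grouping made after the values were seen. Slc1a5, Slc38a3 and Slc38a5 were higher in V/SVZ, and Slc38a1, Slc38a2 and Slc38a7 higher in CP. The small Slc38a2 difference lost its call in several settings, and its sign turned without scaling.

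Of 26 tested genes of transmitter and substrate metabolism, 14 were higher in V/SVZ and 8 in CP (all genes 35.0% and 44.6%). Gldc, which breaks down glycine, was 14.5-fold higher in V/SVZ (3.86 ± 0.07), and Maob, a monoamine oxidase, at least 3.91-fold. The mitochondrial creatine kinase gene Ckmt1 was 2.60-fold higher in CP (-1.38 ± 0.05). For taurine and creatine, the making enzymes and the carriers lay on opposite sides: Csad (1.11 ± 0.08), Cdo1 (0.71 ± 0.06), Gamt (1.48 ± 0.03) and Gatm (0.48 ± 0.09) were higher in V/SVZ, and Slc6a6 and Slc6a8 higher in CP. For GABA, the breakdown enzymes Abat (1.25 ± 0.05) and Aldh5a1 (1.37 ± 0.08) were higher in V/SVZ together with Slc6a11, and the synthesis enzymes Gad1 (-0.93 ± 0.08) and Gad2 (-0.49 ± 0.08) were higher in CP. These groupings were picked after the values were seen.

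Glycine and GABA-A receptor genes were mostly on the CP side, with 11 of 13 tested higher in CP and 1 in V/SVZ, and a median of -3.12 (all genes 35.0% for V/SVZ and 44.6% for CP). Gabrd was at least 29.3-fold and Gabra5 at least 12.7-fold higher in CP, while Gabra4 was 1.86-fold higher in V/SVZ (0.89 ± 0.17). Of 22 genes of the amino acid response through Atf4, 14 were higher in V/SVZ and 7 in CP (all genes 35.0% and 44.6%). Phgdh (5.77 ± 0.08, 54.7-fold) and Psat1 (3.44 ± 0.06, 10.8-fold), enzymes of serine synthesis, were highest in V/SVZ. The asparagine synthetase gene Asns (-2.23 ± 0.03, 4.68-fold) and Vldlr (-2.44 ± 0.05, 5.43-fold) were higher in CP. The list did not move one way, and Atf4 itself differed by 0.14 ± 0.05. The list of amino acid sensing by mTORC1 also holds the kinase itself and regulators such as Rheb, Tsc1 and Tsc2. Of its 31 tested genes, 6 were higher in V/SVZ and 16 in CP (all genes 35.0% and 44.6%). The differences were small, with a median absolute difference of 0.22. The largest were Fnip2 (-1.21 ± 0.07) and Tsc1 (-0.89 ± 0.03) towards CP, and Sesn1 (0.90 ± 0.05) and Sesn2 (0.81 ± 0.05) towards V/SVZ. With median scaling 6 were higher in V/SVZ and 9 in CP, and without scaling the balance turned, with 13 in V/SVZ and 6 in CP.

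**Figure D4:**
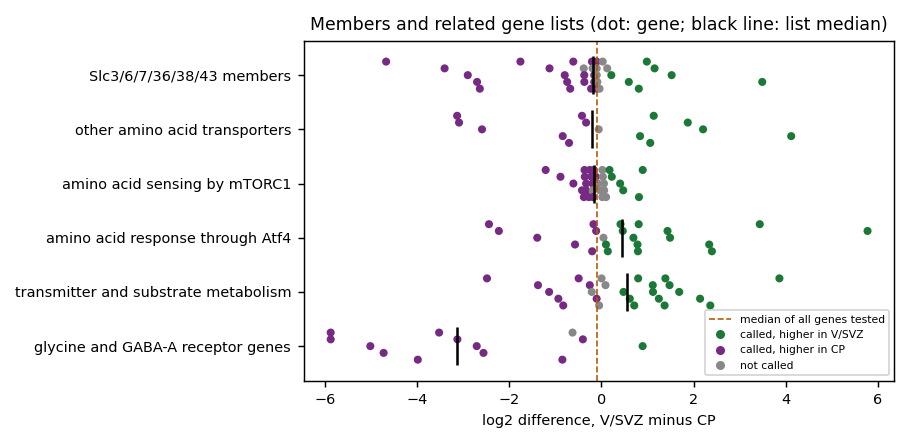
Log2 difference between V/SVZ and CP for each tested gene (dots, coloured by call) of the 34 members and of 5 related lists, with black lines for list medians and a dashed line for the median of all genes, -0.09. Receptor genes lie to the left with a median of -3.12, metabolism genes to the right with 0.55, and members and mTORC1 sensing genes around the dashed line.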

How the data were processed

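Processed signal intensities were deposited by the authors for each 1-colour Agilent array as scanner output, with the background already subtracted, per the file headers. Feature Extraction 10.7.1.1 wrote them, per the file headers. Outlier-flagged spots were left out, spots of a probe were averaged, log2 was taken and each array's 75th percentile subtracted. Testing needed a signal well above background on all 4 arrays of a tissue and 3 or more arrays with a value in each tissue, met by 23860 of 39429 probes. limma 3.58.1 in R 4.3.3 compared 4 V/SVZ with 4 CP arrays, with no covariate and Benjamini-Hochberg adjustment. Further probes of a gene were read from the same fit run on all tested probes and adjusted over those. The tested probe with the highest mean represents a gene. Symbols came from RefSeq accessions, which named 26761 probes. A bound ("at least") divides the mean of the brighter tissue by the lowest signals well above background in the other. The members and all gene lists were chosen with earlier results of these data known. Tested members are named, along with the 2 largest called genes each way of each related list and the largest gene of each marker list. Any other gene in the text was picked with its values in view, and some items that meet these rules are not reported here.

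The authors' deposited log2 value table holds 17163 gene probes, with scale and centring not stated. Each of its 8 columns matched the array with its number in the other tissue (r = 1.000) and not the array it is labelled for (r from -0.955 to -0.944). The zone markers follow the scanner files' labels, so those were used, and the table served as an alternative with its tissues turned. The fit was tested on simulated data. Alternatives covered scaling, background, filter, probe choice, variance model, replicate block and each replicate left out. The number of arrays limits the precision.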

Additional observations from a re-analysis of the deposited data

Results flagged for a closer look

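In 6 of 110 groups of 4 arrays, 1 array stood apart from the others of its tissue by Dixon's test, which chance gives in about 1 of 20 groups. Slc7a14 read 83.4 on V/SVZ 1 and 121 to 131 on the other V/SVZ arrays. Slc43a1 read 28.3 on CP 2 and 40.8 to 43.7 on the other CP arrays. Slc7a10 read 302.8 on V/SVZ 4, against 347 to 352. Slc36a1 read 255.5 on V/SVZ 2, against 268 to 269.6. Slc7a6os read 1724 on CP 4, against 1635 to 1648. Slc36a2, below the background limit on all 8 arrays, read 23.5 on CP 3, against 9.95 to 10.8.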

How the results depend on the processing

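Of 671 member values under the alternatives, 614 kept their direction and side of the threshold, 29 lost a call, 11 gained one and 17 changed sign, and 18 of 34 members kept both under every alternative in which they were tested. Without scaling, all transporter counts were 13 for V/SVZ and 12 for CP, and the sign turned for Slc3a2 (0.11), Slc6a9 (0.0026), Slc7a1 (0.052), Slc7a3 (0.11), Slc7a6 (0.052), Slc7a6os (0.10), Slc36a4 (0.17), Slc38a2 (0.10), Slc38a6 (0.017) and Slc43a2 (0.12). Slc36a4 also turned with median scaling (0.047), normexp (0.049) and array weights (0.0044), and Slc36a1 with spike-in scaling (-0.042), normexp (-0.12) and array weights (-0.019). Leaving out 1 replicate moved Slc7a3 between -0.25 and 0.012, the Slc3 count for CP between 0 and 1 (1 without V/SVZ replicate 4), and the Slc6 count for V/SVZ between 1 and 2. Without scaling, V/SVZ counts were 2 in Slc7, 2 in Slc36, 4 in Slc38 and 13 in mTORC1 sensing, and CP counts 3 in Slc7, 6 in mTORC1 sensing and 4 in the Atf4 response. With median scaling, CP counts were 4 in Slc7, 9 in mTORC1 sensing and 4 in the Atf4 response. CP counts were 1 in Slc3 and 1 in Slc43 with spike-in scaling, and 2 in Slc3, 1 in Slc36 and 1 in Slc43 with normexp. The Slc6 count for V/SVZ was 1 with quantile scaling, spike-in scaling, normexp and no filter. Slc7 had 2 for V/SVZ without a filter, Slc36 had 1 for CP with the mean of probes, and Slc43 had 1 for V/SVZ among probes well above background on all 8 arrays. In the authors' deposited table with tissues turned, which tests fewer genes, V/SVZ counts were 0 in Slc7, 8 in metabolism and 0 in the receptors, and of the 29 members tested there, the 28 also tested on the scanner values kept direction and call. The mean of its probes put Slc7a5 at 2.88-fold higher in CP. The cause of these shifts was not tested.

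Over all genes, calls were 6727 for V/SVZ and 8571 for CP (44.0% V/SVZ), and 8762 and 6189 without scaling (58.6%). Without the filter they were 6831 and 12413. Replicate numbers were shared between tissues, but same-numbered arrays deviated together unevenly (r = 0.34, 0.31, 0.098 and 0.20), and array number 3 did not correlate best with its own number. With the replicate as a block, calls were 6757 and 8620, Slc3 had 1 call for CP (Slc3a1, -0.38, adjusted p = 0.00156 by limma), and Slc7a6os lost its call (adjusted p = 0.0532). Signal over background limits the dim members, whose folds shrank with normexp.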

Other observations

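Some members gave a signal on 1 array only, and their values belong to no comparison. Slc7a9, the light chain that pairs with Slc3a1, read 159.7 on V/SVZ 3, Slc6a21 read 96.2 and Slc6a14, a broad carrier of neutral and cationic amino acids, read 72.1 on the same array. None of these 3 was well above background on any other array.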
